A study of Mus musculus with 7 samples.

Results

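Of the 1926 differentially methylated regions (DMRs) that the authors listed between Scnn1b-Tg and wild-type (WT) airway macrophages (AMs), 367 (19.1%) were annotated as distal intergenic and lay 200 kb or farther from the transcription start site (TSS) of the gene assigned to them. These gene-desert DMRs were taken by that annotation and that distance alone, without regard to their methylation. The assay was tWGBS, whole-genome bisulfite sequencing after tagmentation, in which a transposase cuts small amounts of DNA into tagged fragments and bisulfite turns unmethylated cytosines into uracil. It was run on 3 Scnn1b-Tg and 4 WT samples of AMs sorted as CD45+ Siglec-F+ CD11c+ cells. Scnn1b-Tg mice overexpress Scnn1b, a subunit of the epithelial sodium channel, under the club cell secretory protein promoter, which drives it in airway epithelium, and they develop muco-obstructive lung disease. WT mice were littermates without the transgene. All mice were on a C57BL/6 background, and the study's methods give an age of 6 weeks and female mice for sorting. Whether a sample was 1 mouse or a pool is not stated in the labels.

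The table gives 1 mean methylation level per genotype and region, a fraction between 0 (no CpG methylated) and 1 (every CpG methylated). It holds neither levels of single samples nor read depths. The error of each level is therefore unknown, and no interval can be set on it. The header does not say which level belongs to which genotype, and the assignment used here follows the direction in which the study describes its regions. Every region was in the list because its levels differed between the genotypes, so the differences below are descriptions of selected regions. Regions are not replicates of a condition, and no difference between kinds of region was tested. The sorted identity of the cells could not be checked here, since a table of DMRs holds no expression of AM marker genes.

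In mammalian DNA most CpGs far from genes carry methylation, which DNA methyltransferases copy onto the new strand at each cell division. Gene deserts are long stretches without protein-coding genes, rich in remnants of transposable elements whose CpGs are usually kept methylated, and some of them hold enhancers that act on distant genes, often genes of development. Hypomethylated means here a lower level in Scnn1b-Tg than in WT AMs, and hypermethylated a higher one.

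The sequences below show what gene-desert DMRs with large area statistics looked like. The authors' area statistic adds up a test statistic across the CpGs in a region, so it tends to be larger where there are more CpGs. The first 4 are the leading hypomethylated members of at most 300 bases. The next 2 are hypermethylated members taken from the 3 that led under the same limit, and the other one is not reported here. The last 3, at Spanxn4 and Tlr4, were chosen after their values had been seen, because the Spanxn4 region had the largest loss of methylation and Tlr4 encodes the receptor for bacterial lipopolysaccharide. Each is the plus strand of GRCm38 (mm10), 5′ to 3′, from the first to the last CpG of the region, with CpGs in capitals. The gene name is the gene to which the table assigned the region.
Csmd1, chr8:15740571-15740828: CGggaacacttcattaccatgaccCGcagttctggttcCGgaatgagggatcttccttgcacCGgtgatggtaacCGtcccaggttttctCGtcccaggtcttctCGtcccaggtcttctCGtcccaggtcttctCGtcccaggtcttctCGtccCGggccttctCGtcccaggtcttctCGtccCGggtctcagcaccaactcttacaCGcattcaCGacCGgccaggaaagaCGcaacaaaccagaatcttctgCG
Gm10440, chr5:55768320-55768499: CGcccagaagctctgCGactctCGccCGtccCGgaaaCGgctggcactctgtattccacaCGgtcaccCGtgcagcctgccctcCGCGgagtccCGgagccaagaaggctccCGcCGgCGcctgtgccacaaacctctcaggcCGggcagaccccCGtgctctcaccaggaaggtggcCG
1190002N15Rik, chr9:94314940-94315192: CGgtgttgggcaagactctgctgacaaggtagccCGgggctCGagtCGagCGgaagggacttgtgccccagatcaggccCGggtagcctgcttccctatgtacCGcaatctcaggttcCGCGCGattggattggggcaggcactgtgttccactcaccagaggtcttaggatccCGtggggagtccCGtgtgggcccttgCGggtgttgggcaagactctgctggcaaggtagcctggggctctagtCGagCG
1700034K08Rik, chr9:93366765-93366998: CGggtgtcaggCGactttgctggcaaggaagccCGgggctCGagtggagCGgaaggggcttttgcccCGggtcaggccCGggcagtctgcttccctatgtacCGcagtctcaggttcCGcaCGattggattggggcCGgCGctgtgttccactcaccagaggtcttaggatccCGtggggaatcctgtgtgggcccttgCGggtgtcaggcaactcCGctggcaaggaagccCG
Slc35b3, chr13:39545020-39545194: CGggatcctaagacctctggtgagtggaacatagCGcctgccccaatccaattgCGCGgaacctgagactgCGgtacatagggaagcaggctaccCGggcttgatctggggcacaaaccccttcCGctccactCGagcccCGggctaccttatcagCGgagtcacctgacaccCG
A330008L17Rik, chr8:100618068-100618132: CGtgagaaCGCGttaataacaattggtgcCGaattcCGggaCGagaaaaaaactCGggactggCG
Spanxn4, chr12:62176722-62176816: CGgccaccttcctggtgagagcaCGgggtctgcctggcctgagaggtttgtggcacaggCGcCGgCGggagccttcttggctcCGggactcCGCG
Tlr4, chr4:67365865-67366024: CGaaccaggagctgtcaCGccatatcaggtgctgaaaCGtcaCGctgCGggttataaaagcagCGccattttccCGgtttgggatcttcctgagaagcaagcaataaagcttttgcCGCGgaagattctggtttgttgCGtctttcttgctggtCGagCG
Tlr4, chr4:67340531-67340625: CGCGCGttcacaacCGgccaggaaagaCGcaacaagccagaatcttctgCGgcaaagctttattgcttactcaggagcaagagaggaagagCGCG

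All 9 printed regions were repeat-masked in the reference over at least 92.6% of their bases, and 8 of them over 100%. Several were copies of one another although they lie far apart. The regions at 1190002N15Rik and 1700034K08Rik were 88.9% identical over 234 aligned bases, and that at Slc35b3 was 93.9% identical to the 1190002N15Rik region over 163 bases. The first pair was hypomethylated, at 0.692 in Scnn1b-Tg against 0.927 in WT AMs for 1190002N15Rik and at 0.607 in Scnn1b-Tg against 0.850 in WT AMs for 1700034K08Rik. The Slc35b3 region was hypermethylated, with 0.908 in Scnn1b-Tg and 0.677 in WT AMs. Regions of like sequence thus moved in opposite directions at different places. The Spanxn4 region was 97.9% identical to the one at Gm10440 over 96 aligned bases, and both were hypomethylated.

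Most gene-desert DMRs lost methylation in Scnn1b-Tg AMs. Of the 367, 302 (82.3%) were hypomethylated and 65 (17.7%) hypermethylated, where 72.9% of all 1926 DMRs were hypomethylated. The share was 77.5% (265 of 342) in intergenic DMRs between 50 and 200 kb from the TSS, 73.2% (295 of 403) in those under 50 kb, 75.8% (389 of 513) in introns and 50.2% (106 of 211) in promoters. Among gene-desert DMRs it was 81.6% (182 of 223) between 200 and 500 kb, 81.8% (90 of 110) between 500 kb and 1 Mb and 88.2% (30 of 34) at 1 Mb and over. Members upstream of the assigned TSS (124 of 154, 80.5%) and downstream of it (178 of 213, 83.6%) had like shares.

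**Figure D1:**
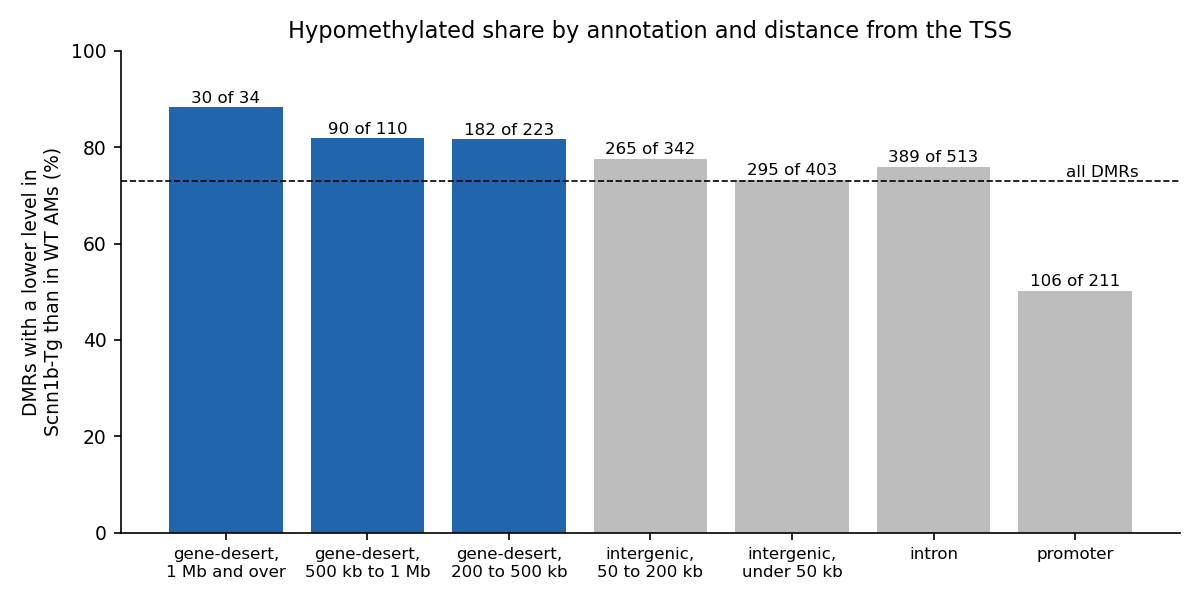
Share of DMRs with a lower level in Scnn1b-Tg than in WT AMs (vertical axis, %) for 3 distance bins of gene-desert DMRs (blue) and for 4 other classes (grey), with counts above the bars; the dashed line is the share in all DMRs (72.9%). The gene-desert bins lie at 88.2%, 81.8% and 81.6%, above each of the other classes, and promoters lie lowest at 50.2%.

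The hypomethylated members came from highly methylated DNA. Their median level was 0.589 in Scnn1b-Tg AMs (quartiles 0.515 and 0.661) and 0.850 in WT AMs (quartiles 0.784 and 0.895), and the median difference was -0.244, with quartiles of -0.285 and -0.220. The 560 other distal intergenic hypomethylated DMRs had medians of 0.583 in Scnn1b-Tg against 0.834 in WT AMs and a median difference of -0.240, so the size of the loss was much the same in both. Of the members, 216 had a WT level of at least 0.8, and all 216 were hypomethylated. The same held for all 171 such regions between 50 and 200 kb and all 180 under 50 kb, and a region near full methylation has little room to gain.

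The 65 hypermethylated members started from intermediate levels. Their median was 0.835 in Scnn1b-Tg AMs (quartiles 0.736 and 0.904) and 0.597 in WT AMs (quartiles 0.531 and 0.677), with a median difference of 0.234. In the 185 other hypermethylated distal intergenic DMRs, the medians were lower in both genotypes, 0.725 in Scnn1b-Tg and 0.499 in WT AMs, with a median difference of 0.223. Gene-desert DMRs with a low level were few: 43 of the 367 were under 0.6 in WT AMs, of which 10 were hypomethylated and 33 hypermethylated.

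**Figure D2:**
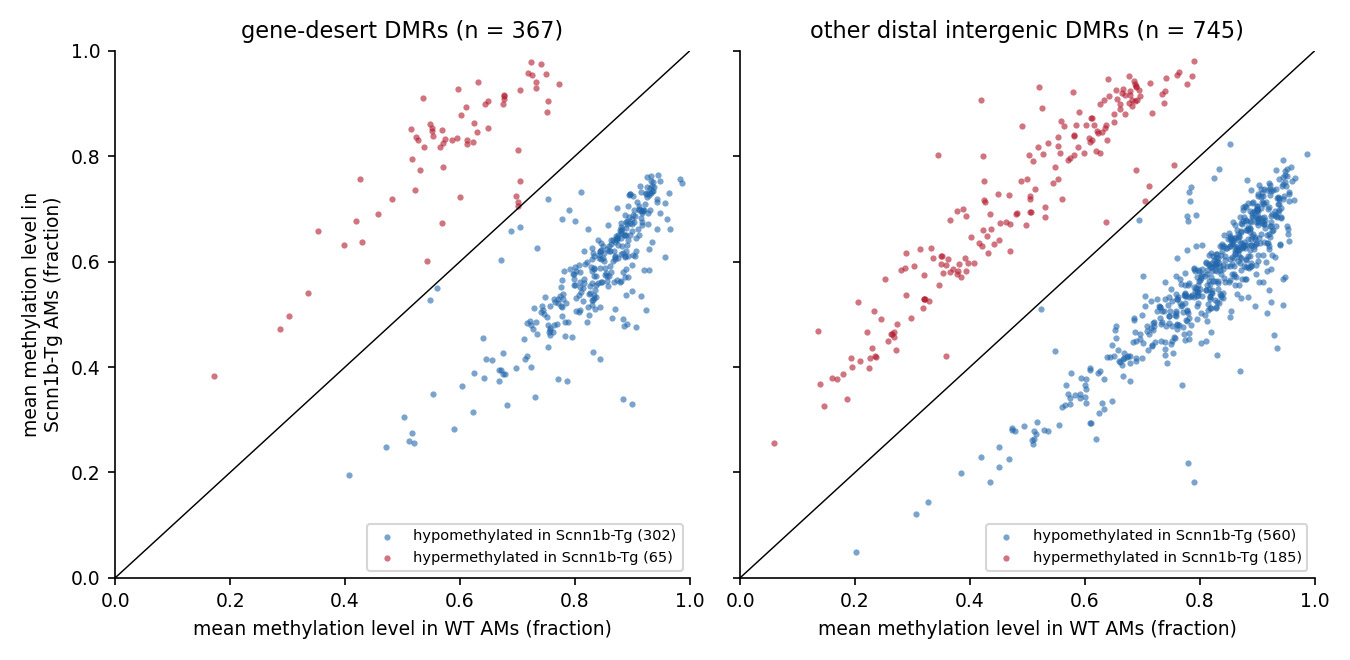
Mean methylation level in Scnn1b-Tg AMs (vertical axis, fraction) against that in WT AMs (horizontal axis, fraction) for gene-desert DMRs (left) and other distal intergenic DMRs (right); each point is 1 region, blue where hypomethylated and red where hypermethylated in Scnn1b-Tg AMs, and the line marks equal levels. The blue points of the left panel gather around 0.589 in Scnn1b-Tg and 0.850 in WT AMs. The left panel holds 367 regions and the right 745, so numbers of points cannot be compared directly. The lower quartile of the WT level is 0.724 on the left and 0.631 on the right.

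The largest loss lay 511 kb from Spanxn4, at 0.330 in Scnn1b-Tg and 0.899 in WT AMs over 8 CpGs. The next was 283 kb from Klhl1, which encodes a kelch-like protein, at 0.340 in Scnn1b-Tg and 0.883 in WT AMs over 4 CpGs. Both differences lay far beyond the lower quartile of -0.285. The regions at 1700109I08Rik (0.477 in Scnn1b-Tg, 0.906 in WT AMs), Mir6353 (0.415 in Scnn1b-Tg, 0.844 in WT AMs) and Cntn5 (0.509 in Scnn1b-Tg, 0.923 in WT AMs) followed. The largest gain lay 269 kb from Lrrc4c, which encodes a netrin-G ligand of synapses, at 0.909 in Scnn1b-Tg and 0.535 in WT AMs over 4 CpGs. Large gains also lay at Psg29 (0.757 in Scnn1b-Tg, 0.427 in WT AMs), Ccdc85a (0.927 in Scnn1b-Tg, 0.597 in WT AMs) and Gm10649 (0.836 in Scnn1b-Tg, 0.523 in WT AMs). The share of 31-base windows found once in the reference was 0% at Spanxn4, Klhl1, Ccdc85a and Gm10649. It was 18.3% at 1700109I08Rik, 29.9% at Lrrc4c, 44.1% at Psg29, 56.4% at Mir6353 and 77.5% at Cntn5. Whether read placement affected these levels was not tested.

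By area statistic, the leading hypomethylated member lay 944 kb from Socs6, a gene of the suppressor of cytokine signalling family, with 22 CpGs at 0.744 in Scnn1b-Tg and 0.934 in WT AMs. The 10 members that led this direction held 13 to 22 CpGs, with levels of 0.607 to 0.744 in Scnn1b-Tg and of 0.850 to 0.934 in WT AMs. Beyond those printed above they were assigned to Kctd8, Ncam2, Dach2, Cox7c and Tex13c1. The leading hypermethylated member lay 279 kb from Pmp22, which encodes a peripheral myelin protein, with 30 CpGs over 900 bp at 0.539 in Scnn1b-Tg and 0.336 in WT AMs. Yet a transcript start annotated in GENCODE M21 lay only 0.136 kb from this region, and 15.6% of its bases were repeat-masked. A region of 2050 bp and 20 CpGs at C130030K03Rik (0.904 in Scnn1b-Tg, 0.753 in WT AMs) and one of 14 CpGs at Fign, which encodes the microtubule-severing protein fidgetin (0.496 in Scnn1b-Tg, 0.303 in WT AMs), came next. Unlike the hypomethylated leaders, the 10 leading hypermethylated members spanned wide ranges, 0.496 to 0.956 in Scnn1b-Tg and 0.303 to 0.772 in WT AMs.

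Gene-desert DMRs were small, as were the DMRs as a whole. Their median length was 187 bp (quartiles 106 and 284 bp, highest 2297 bp), against 183 bp in other distal intergenic DMRs and 191 bp in all DMRs. The median CpG number was 4, against 5 in other distal intergenic DMRs. Among the 367 members, 199 (54.2%) held 4 CpGs, the fewest of any member. Only 29 held 10 CpGs or more, 23 of them hypomethylated. The median density was 2.62 CpGs per 100 bp, against 3.01 in other distal intergenic DMRs. In 14 members the levels differed by less than 0.1, the minimum difference that the study states, and in 3 the area statistic and the difference had opposite signs.

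The distances ran up to 1806 kb, with a median of 405 kb. The 5 farthest members were 2 at Lrrtm1, a leucine-rich repeat protein of synapses, and 1 each at Diaph2, Gm10440 and Pcdh17. The pair upstream of Lrrtm1 moved in opposite directions. At 1806 kb the level was 0.854 in Scnn1b-Tg and 0.551 in WT AMs over 10 CpGs, and at 1697 kb it was 0.606 in Scnn1b-Tg and 0.870 in WT AMs over 4 CpGs. Just inside the limit of 200 kb lay regions at Prelid2 (200.2 kb, 0.823 in Scnn1b-Tg, 0.612 in WT AMs), Igsf11 (201.1 kb, 0.531 in Scnn1b-Tg, 0.802 in WT AMs) and 4930559C10Rik (202.3 kb, 0.550 in Scnn1b-Tg, 0.561 in WT AMs). Just outside it lay regions at Fbxl4 (199.6 kb, 0.759 in Scnn1b-Tg, 0.825 in WT AMs), A530072M11Rik (198.7 kb, 0.561 in Scnn1b-Tg, 0.902 in WT AMs) and Plekhb2 (198.4 kb, 0.601 in Scnn1b-Tg, 0.901 in WT AMs).

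The name gene desert held for protein-coding genes but not for every annotated transcript. In the GENCODE M21 annotation, 342 members (93.2%) lay in no gene and 1 lay in a protein-coding gene, while 19 lay in a gene of a long intergenic noncoding RNA. Around the 366 members outside protein-coding genes, the stretch free of such genes had a median length of 1394 kb, against 229 kb for other distal intergenic DMRs. Members were taken by their distance from a TSS and the others lie nearer to one, so this gap largely follows from the rule. A stretch was counted once for each member in it. A chromosome end bounded the stretch where no coding gene lay on that side. However, the nearest GENCODE transcript start of any kind was at a median of 52.6 kb, and only 24 members (6.54%) were 200 kb or farther from one. The assigned gene was protein-coding for 272 members (74.1%) and a long noncoding RNA for 70 (19.1%), in RefSeq terms.

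The members lay in 240 stretches without coding genes, 28 of which held 3 or more. Several of those stretches were bounded by genes of cell adhesion. Between Cdh8 and Cdh11, which encode cadherins, the cell-cell adhesion proteins that bind through calcium, 3216 kb held 6 members, 4 hypomethylated and 2 hypermethylated. Between Adgrl3, which encodes the adhesion receptor latrophilin 3, and Tecrl there were 6 in 1453 kb, 3 in each direction. The stretch between Diaph2 and Pcdh19 on chromosome X held 5 and that between Cdh10 and Cdh12 held 4, all of them hypomethylated. In the 28 stretches, 83 of 101 members were hypomethylated, close to the share in all gene-desert DMRs.

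Members close to each other did not always move together. Neighbouring members within 100 kb formed 32 pairs, of which 17 were hypomethylated at both, 1 was hypermethylated at both and 14 were of opposite direction. Within 1 Mb there were 124 pairs, 82 hypomethylated at both, 3 hypermethylated at both and 39 of opposite direction. These counts stand beside the 82.3% of all gene-desert DMRs that were hypomethylated, and a tie between neighbours was not tested. The 3 pairs within 10 kb were each hypomethylated at both regions. They lay at 1700109I08Rik (0.477 and 0.585 in Scnn1b-Tg, against 0.906 and 0.889 in WT AMs), at Sorcs1, a sortilin-related receptor gene (0.413 and 0.604 in Scnn1b-Tg, against 0.656 and 0.829 in WT AMs), and at 5730507C01Rik (0.343 and 0.581 in Scnn1b-Tg, against 0.730 and 0.808 in WT AMs). All 3 groups of 3 members spaced by less than 100 kb, at Pcmtd1, A330008L17Rik and Adgrl3, held both directions. At A330008L17Rik a region at 0.637 in Scnn1b-Tg and 0.869 in WT AMs lay 10.1 kb from one at 0.956 in Scnn1b-Tg and 0.749 in WT AMs.

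Members were unevenly spread over chromosomes, as were the DMRs as a whole. Chromosome X had the most, 34, followed by chromosomes 1 and 3 with 32 each. Relative to all DMRs of a chromosome, gene-desert DMRs made up 30.2% on chromosome 12 (29 of 96), 28.3% on chromosome 5 (26 of 92) and 27.7% on chromosome 16 (18 of 65). They made up 6.38% on chromosome 11 (6 of 94), 7.25% on chromosome 17 (5 of 69) and 7.63% on chromosome 7 (10 of 131). Hypomethylated members outnumbered hypermethylated ones on every chromosome except 11, where both had 3. All 18 members on chromosome 14 were hypomethylated, and 12 of 19 on chromosome 10. On chromosome X, 28 of 34 (82.4%) were hypomethylated, and on the autosomes 274 of 333 (82.3%).

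**Figure D3:**
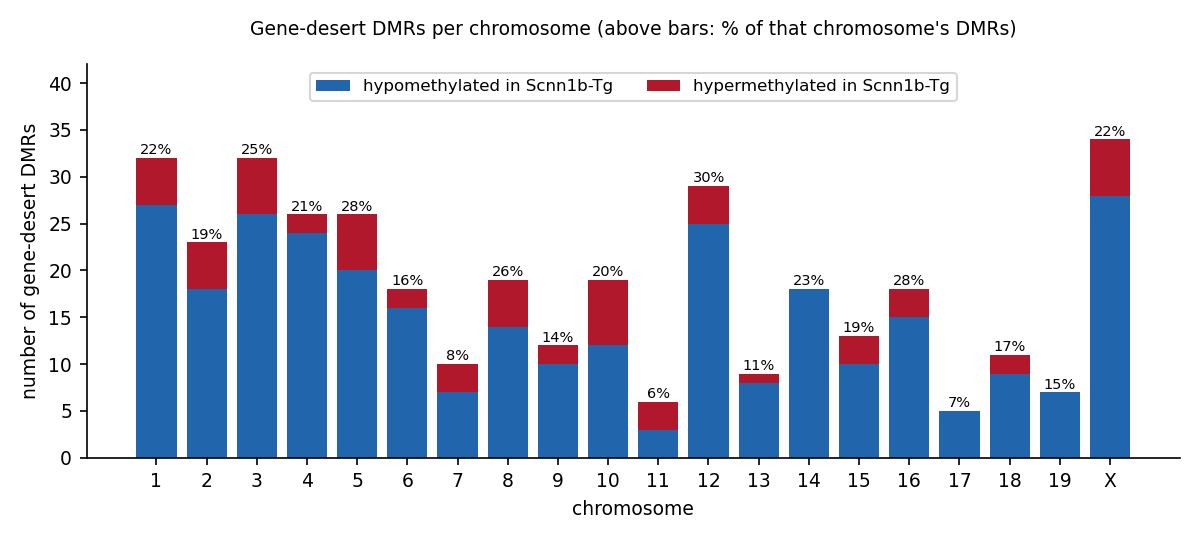
Number of gene-desert DMRs on each chromosome (vertical axis), split into hypomethylated (blue) and hypermethylated (red) in Scnn1b-Tg AMs; the percentage above a bar is the share of that chromosome's DMRs that were gene-desert DMRs. Chromosome X has the highest bar (34) and chromosome 12 the highest share (30.2%), and chromosomes 14, 17 and 19 have blue members only.

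The 367 members were assigned to 281 genes, and 20 genes had 3 or more. A330008L17Rik and Gm20268 had 4 each. All 3 members were hypomethylated at Ncam2, Pcdh19, Sorcs1, Acot10, Wdr20rt, Gm10440 and 5730507C01Rik, while the genes with both directions included Fign, Lrrtm1, Lrrc4c, Zfp804a, Rprl2 and Spanxn4. In the 20 genes together, 48 of 62 members were hypomethylated.

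Of the 63 genes listed for macrophage inflammation, 2 had a member, and the 3 regions were hypomethylated. They made up 20% of the 15 DMRs of any class at these genes, close to the 19.1% that gene-desert DMRs made up of all DMRs. Both at Tlr4 lay over 500 kb downstream of its TSS, 25.2 kb apart. The nearer one was at 0.751 in Scnn1b-Tg and 0.936 in WT AMs over 8 CpGs, and the farther one at 0.612 in Scnn1b-Tg and 0.901 in WT AMs over 10 CpGs. In both Tlr4 regions 0% of the 31-base windows occurred once in the reference, with medians of 87 and 112 copies. The Tlr4 pair was 90.7% identical over 54 aligned bases, so the regions hold related repeated sequence. The third was the Socs6 region. None of the 35 genes of AM identity, 49 macrophage transcription factors or 25 genes of monocytes and interstitial macrophages had a gene-desert DMR. The same held for the 41 genes of other leukocytes and the 37 genes of lung epithelium and stroma. In this order, the lists had only 4, 7, 6, 2 and 2 DMRs of any class. Beside a share of 19.1% in all DMRs, these numbers are too small to read the absence as a result.

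Genes of neural adhesion and synapses, of cadherins and of developmental transcription factors took 57 members. Members were defined by their distance from the assigned TSS. Genes beside long stretches without coding genes can therefore take a larger share of gene-desert DMRs by that rule alone. The lists were also chosen with earlier results known, and the shares in them were not tested. From 94 genes of neural adhesion and synapses, 20 had 31 members, 24 hypomethylated and 7 hypermethylated, with a median difference of -0.249. They made up 44.3% of the 70 DMRs of any class at these genes, beside 19.1% of all DMRs. Hypomethylated were 58 of those 70, and 82.3% of all gene-desert DMRs. Ncam2, a neural cell adhesion molecule, had 3 members: 0.562, 0.706 and 0.540 in Scnn1b-Tg AMs, against 0.847, 0.892 and 0.825 in WT AMs. All 3 were hypomethylated. Members at Cntnap2 (0.493 in Scnn1b-Tg, 0.864 in WT AMs) and Cntnap5a (0.537 in Scnn1b-Tg, 0.889 in WT AMs), which encode neurexin-related proteins, were also hypomethylated. Both members at Csmd3 were hypermethylated, at 0.835 and 0.825 in Scnn1b-Tg AMs, against 0.595 and 0.570 in WT AMs.

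Of the 28 cadherin and protocadherin genes, 7 had 12 members, 11 hypomethylated and 1 hypermethylated, which made up 80% of the 15 DMRs of any class at these genes, beside 19.1% of all DMRs. Of those 15, 13 were hypomethylated, and 11 of 12 lies near the 82.3% of all gene-desert DMRs. Cdh10 and Cdh11 bound long stretches without coding genes, so the limit given above for such shares applies here. Pcdh19, a protocadherin gene of chromosome X, had 3 members between 415 and 1472 kb away, at 0.686, 0.641 and 0.533 in Scnn1b-Tg AMs, against 0.904, 0.840 and 0.838 in WT AMs. The largest loss in the list was at Cdh10, with 0.479 in Scnn1b-Tg and 0.886 in WT AMs. The exception in direction was Cdh9, 1086 kb away, at 0.914 in Scnn1b-Tg and 0.676 in WT AMs.

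All 14 members at developmental transcription factors were hypomethylated, as were 35 of the 38 DMRs of any class at these genes, beside 82.3% of all gene-desert DMRs and 72.9% of all DMRs. The 14 made up 36.8% of the 38, beside 19.1% of all DMRs, with the same limit. They belonged to 11 of the 139 genes listed. Dach2, a dachshund-family factor, had 2 with 15 and 11 CpGs, at 0.728 and 0.688 in Scnn1b-Tg AMs, against 0.896 and 0.888 in WT AMs. Members at Nfia (0.566 in Scnn1b-Tg, 0.873 in WT AMs), a nuclear factor I gene, and at Nr2f1 (0.607 in Scnn1b-Tg, 0.841 in WT AMs), a nuclear receptor gene, were lower in both genotypes than those at Dach2. Whether these genes were expressed in the sorted AMs was not analysed here.

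**Figure D4:**
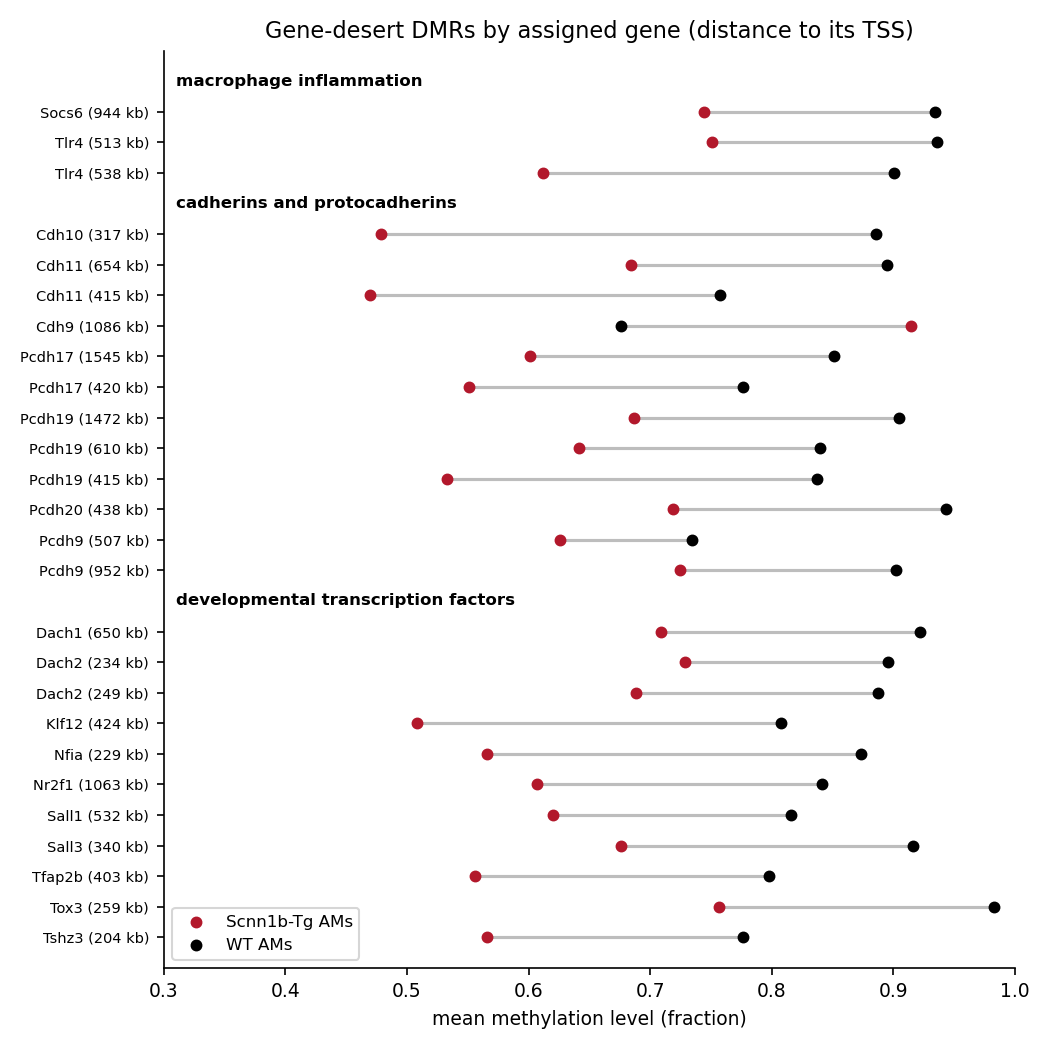
Mean methylation level (horizontal axis, fraction) in Scnn1b-Tg (red) and WT (black) AMs for 26 gene-desert DMRs assigned to listed macrophage inflammation, cadherin or developmental transcription factor genes; each row is 1 region with its distance to the TSS of that gene, and the grey line joins the genotypes. The red point is left of the black one in every row shown except that of Cdh9.

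Gene-desert DMRs held more repeat-masked sequence than the DNA around them. A median of 96.4% of their bases was repeat-masked, against 45.3% in windows of the same length 10 kb to either side. For this and the flank medians below, the windows on both sides of a member were averaged first, which draws extreme values towards the middle. The means were 68.5% in members and 43.1% in flanks. More than 50% was masked in 247 of 367 (67.3%), against 54.4% of other distal intergenic DMRs, 36.8% of DMRs in introns and 16.6% of those in promoters. In all, 171 members (46.6%) were masked over their whole length and 30 (8.17%) nowhere. Hypomethylated and hypermethylated members were alike in this, with 67.9% and 64.6% masked by over 50%. Among other distal intergenic DMRs the same shares were 60.0% and 37.3%, so the gap to gene-desert DMRs was wider for hypermethylated than for hypomethylated regions.

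Members rich in CpGs were mostly masked. Of the 29 members with 10 or more CpGs, 26 were masked by over 50%, and all 10 leading hypomethylated members were. GC content had a median of 45.6% in members, against 38.5% in the flanking windows and 49.0% in other distal intergenic DMRs. The 100 kb around the members had a median of 38.2% GC, against 41.7% around other distal intergenic DMRs. CpG density differs from the flanks by construction, since regions were called on runs of CpGs.

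**Figure D5:**
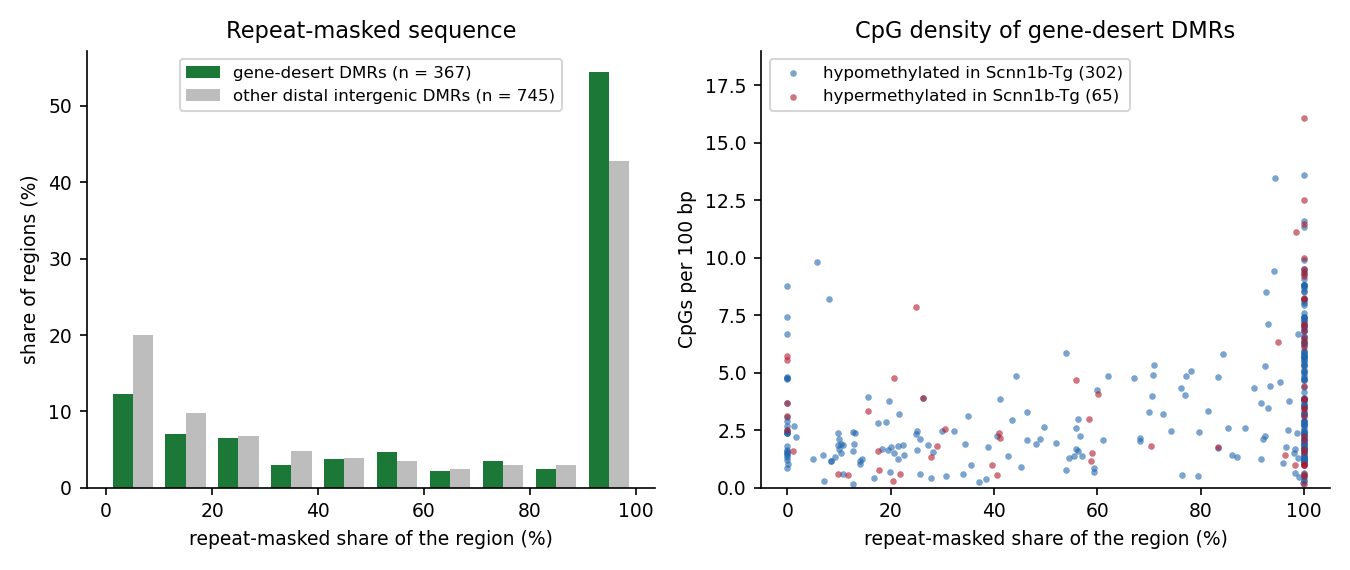
Left, share of regions (vertical axis, %) by repeat-masked share of their bases (horizontal axis, %, in steps of 10) for gene-desert DMRs (green) and other distal intergenic DMRs (grey); right, CpGs per 100 bp (vertical axis) against the repeat-masked share for each gene-desert DMR, blue where hypomethylated and red where hypermethylated in Scnn1b-Tg AMs. The highest step holds most gene-desert DMRs, of which 171 of 367 are masked over their whole length, and the densest regions sit there.

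Many members were copies of repeated sequences. Aligned with each other, 176 of the 367 (48.0%) were at least 90% identical to another DMR over at least 80% of the shorter region, against 41.1% of other distal intergenic and 8.53% of promoter DMRs. At 80% identity over 70% the share was 55.0%, and at 95% over 90% it was 35.4%. Regions linked in this way, directly or through others, formed 1 large group of 333 DMRs, 112 of them members on 19 chromosomes, 95 hypomethylated and 17 hypermethylated. A second group held 85 DMRs with 30 members, 22 hypomethylated and 8 hypermethylated. The median levels of these 30 members were 0.708 in Scnn1b-Tg against 0.894 in WT AMs. The 112 members in the large group had lower medians, 0.599 in Scnn1b-Tg against 0.831 in WT AMs. The Csmd1 and A330008L17Rik sequences printed above belong to the second group, and those at 1190002N15Rik, 1700034K08Rik and Slc35b3 to the large one.

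Only part of this sequence is unique in the genome. The median share of 31-base windows that occurred once in the reference was 33.0% in members, against 88.8% in their flanks, averaged over both sides. The means were 45.8% in members and 76.2% in flanks. By repeat content, 80.8% of the 120 members masked up to 50% were hypomethylated, as were 81.5% of the 151 with at least 50% of their windows unique. The part of repeats in the levels was not tested. The median levels of hypomethylated members masked up to 50% were 0.581 in Scnn1b-Tg and 0.822 in WT AMs.

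Short consensus motifs of macrophage transcription factors were searched on both strands, with N for any base, and matches of different motifs may overlap. The C/EBP motif TTGCNNAA occurred in 16.3% of members, 14.3% of flanking windows and 12.1% of other distal intergenic DMRs. The STAT motif TTCNNNGAA occurred in 10.4% of members, 9.54% of flanks and 10.9% of other distal intergenic DMRs, and the PU.1 motif GAGGAAGT in 1.63% of members, 1.63% of flanks and 1.88% of other distal intergenic DMRs. The CTCF core CAGNNGGC occurred in 7.36% of members, 7.08% of flanks and 11.1% of other distal intergenic DMRs. The NF-kB motif GGGANTTCC was in 0 of 367 members, in 4 of 734 flanks and in 6 of the 745 other distal intergenic DMRs.

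By direction, the PU.1 motif was in 3 of 65 hypermethylated (4.62%) and 3 of 302 hypomethylated members (0.993%), counts too small to compare. The AP-1 motif TGANTCA was in 8 of 65 hypermethylated members (12.3%) and in 15 of 302 hypomethylated ones (4.97%), beside 5.59% of flanks and 7.25% of other distal intergenic DMRs. The IRF motif GAAANNGAA was in 13 of 65 hypermethylated members (20.0%) and in 31 of 302 hypomethylated ones (10.3%), beside 9.54% of flanks and 8.86% of other distal intergenic DMRs. Of the 23 members with the AP-1 motif, 7 were masked by over 50%, beside 247 of all 367 members. The counts were 28 of 44 for IRF, 40 of 60 for C/EBP, 27 of 38 for STAT, 14 of 27 for CTCF and 3 of 6 for PU.1. None of these differences was tested, and a motif match is a run of letters and not a bound site.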

How the data were processed

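AMs of 3 Scnn1b-Tg and 4 WT samples were analysed by tWGBS. Per the study's methods, 20 ng of DNA per sample was tagmented into 4 libraries, and the submitters' notes name Trimmomatic 0.36, BWA 0.7.8, Picard, MethylDackel and mm10. The authors smoothed CpG methylation with bsmooth (bsseq) and called DMRs with DSS, stating minima of 3 CpGs, 50 bp and a difference of 0.1 and an adjusted p-value. Smoothing shares information between neighbouring CpGs. Read placement in repeats can affect the levels there, which was not tested. The deposited table holds per region a methylation fraction per genotype, averaged by the authors over samples, and their area statistic, a score summed over CpGs. The deposited difference column was not used; levels were subtracted instead, Scnn1b-Tg minus WT. No column of another sample was present (0 left out).

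Gene-desert DMRs were rows annotated Distal Intergenic with an absolute TSS distance of at least 200 kb. All 367 were kept: each starts and ends on a CpG of GRCm38, and 312 have as many reference CpGs as the table, the other 55 having more. Sequence, soft-masked repeats (RefSeq assembly), GENCODE M21 genes and exact 31-base copies were read with pysam 0.24.0 and numpy 2.4.6, and DMRs were aligned to each other with blastn 2.17.0 (e-value up to 1e-05). Helper functions were tested on simulated data. Members and gene lists were chosen with earlier results of these data known. Genes were named by rule: per direction the 10 largest area statistics and 5 largest differences, the 5 farthest members, genes with 3 or more members, groups of 3 within 100 kb, listed genes, and 3 regions on either side of 200 kb. No statistical test was made, since the table holds no value per sample. Some members taken by these rules are not reported here.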

Additional observations from a re-analysis of the deposited data

How the results depend on the processing

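The hypomethylated share of gene-desert DMRs stayed within its 95% exact binomial interval (Clopper-Pearson, counting error over regions only) under 8 of 9 alternatives and was 88.2% at a distance of at least 1 Mb. The number of regions was 556 at a distance of at least 100 kb, 144 at 500 kb, 34 at 1 Mb and 105 with at least 6 CpGs, and it was 25 where distal intergenic regions had to lie 200 kb or farther from any GENCODE transcript start. The median difference of hypomethylated regions was -0.235 with at least 6 CpGs, and that of hypermethylated regions was 0.179 under the GENCODE distance. These changes follow from the fewer or additional regions taken. With 2 alternatives on repeats, chosen after seeing the data, 120 regions were masked up to 50% and 151 had at least 50% unique windows. Where regions were masked up to 50%, the median differences were -0.235 for hypomethylated and 0.211 for hypermethylated regions. Of 99 values under the other settings, 79 stayed within their interval or within 1.5 times the count. Most settings take a subset of the same regions, so part of this stability is built in. A change of sign was not possible, since differences were summarised within each direction. No replicate could be left out and no paired analysis was possible because the table holds only means per genotype. Depth is unknown.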

Other observations

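A further 58 DMRs lay 200 kb or farther from the TSS of their gene but were annotated to introns or other parts of genes, and so were not gene-desert DMRs. Of these, 49 (84.5%) were hypomethylated, and the 58 had median levels of 0.615 in Scnn1b-Tg against 0.826 in WT AMs. Over all gene-desert DMRs the medians were 0.616 in Scnn1b-Tg against 0.830 in WT AMs. No difference between these sets was tested. Assigned genes named as RIKEN clones took 66 gene-desert DMRs and 221 DMRs of any class, and predicted genes with a Gm number took 28 gene-desert DMRs and 142 of any class. Olfactory and vomeronasal receptor genes, which form large clusters in the mouse genome, had 0 gene-desert DMRs, beside 44 of all DMRs (2.28%).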
